A study of Mus musculus with 4 samples.

Results

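The forkhead family is a set of transcription factors that share a winged helix DNA-binding domain. Its members were taken as every row of the deposited gene table whose symbol was Fox, followed by a letter from a to s and a number, which gave 44 genes of the 24419 genes analysed. No expression value entered this choice. Averaged over the 4 libraries, 21 of the 44 reached 1 TPM (the deposited level, corrected for gene length and library size), and 22 were below 1 TPM in every library.

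The RNA-seq compared mouse ESCs (embryonic stem cells) with EpiLCs (epiblast-like cells), and ESCs given EED226 with ESCs given its solvent DMSO. ESCs stand for the naive epiblast before implantation, and EpiLCs for the epiblast after implantation. EED226 binds EED, a subunit of Polycomb repressive complex 2 (PRC2), and inhibits the complex. All 4 cultures were of the wild type R1 line, which the methods describe as kept on mouse embryonic fibroblast feeders, so they stand for 1 cell line. The methods describe removal of the feeders on gelatin-coated dishes ahead of the ESC and EpiLC cultures. No such step is described for the DMSO and EED226 cultures. The ESC culture was in serum medium with 1000 U/mL LIF, and by the methods it also held 1 µM PD0325901 and 3 µM CHIR99021 before collection, although the label of the ESC library names LIF alone. By the methods, EpiLCs came from ESCs held before induction in the same medium with 1 µM PD0325901 and 3 µM CHIR99021. EpiLCs were collected 72 h after induction, having been kept without LIF and then in serum replacement medium with 30 ng/ml FGF2 and 0.6 µM JAK inhibitor. The DMSO and EED226 cultures were in serum medium with LIF for 48 h, the second with 10 µM EED226. Each condition had 1 library, so a difference between libraries has no replicate check and cannot be told apart from a difference between cultures of the same kind.

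Forkhead factors bind a core of DNA bases through the winged helix domain, and several of them, FOXA above all, can open closed chromatin. In pluripotent cells FOXD3 is known as a repressor needed to keep the epiblast, FOXH1 as the DNA-binding partner of SMAD2 and SMAD3 under Nodal and activin, and FOXO proteins as factors that leave the nucleus when the kinase AKT phosphorylates them. Many other members, such as FOXC2 of lymphatic vessels or FOXF1 of the gut mesenchyme, are lineage genes that are silent in ESCs and are well known targets of PRC2 at promoters rich in CpG dinucleotides.

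Because the CpG content of a promoter is a feature on which PRC2 targets and broadly active genes differ from tissue-restricted genes, promoter windows of 300 bases (250 before the start and 50 after it) were taken from RefSeq on GRCm38.p6, the build used for the deposited table. They were found for 28 of the 44 members, as 33 windows. These held a median of 22 CpG dinucleotides, against 7 over all 32851 mouse promoters, and 17 of the 33 held 20 or more, as did 26.5% of all promoters. The windows printed here are those of 3 members whose levels differed in EpiLCs, from 3 to 31 CpG, and of *Foxa1*, which was higher under EED226. Among other members counted as higher in EpiLCs, some windows held more, up to 59 for *Foxk2*, and some held fewer, such as 6 for *Foxn3*. Neither of these is printed. They are those of *Foxd3* (chr4:99656049-99656348, plus strand, 25 CpG), *Foxi3* (chr6:70956356-70956655, plus strand, 31 CpG), *Foxa1* (chr12:57546062-57546361, minus strand, 26 CpG) and *Foxr2* (chrX:153118538-153118837, plus strand, 3 CpG), each 5′ to 3′ on the strand of the gene with every CG in capitals.
Foxd3: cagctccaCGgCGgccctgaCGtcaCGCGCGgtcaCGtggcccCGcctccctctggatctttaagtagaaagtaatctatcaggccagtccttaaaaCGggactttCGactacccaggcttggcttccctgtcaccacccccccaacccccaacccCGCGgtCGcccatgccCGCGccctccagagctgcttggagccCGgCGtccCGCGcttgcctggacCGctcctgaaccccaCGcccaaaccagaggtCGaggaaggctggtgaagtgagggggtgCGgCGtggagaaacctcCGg
Foxi3: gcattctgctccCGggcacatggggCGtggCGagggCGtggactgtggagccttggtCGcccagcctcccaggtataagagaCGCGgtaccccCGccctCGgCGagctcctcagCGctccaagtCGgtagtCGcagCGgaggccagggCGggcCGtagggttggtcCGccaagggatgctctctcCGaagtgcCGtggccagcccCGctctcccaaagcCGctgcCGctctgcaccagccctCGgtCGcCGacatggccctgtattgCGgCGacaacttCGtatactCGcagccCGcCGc
Foxa1: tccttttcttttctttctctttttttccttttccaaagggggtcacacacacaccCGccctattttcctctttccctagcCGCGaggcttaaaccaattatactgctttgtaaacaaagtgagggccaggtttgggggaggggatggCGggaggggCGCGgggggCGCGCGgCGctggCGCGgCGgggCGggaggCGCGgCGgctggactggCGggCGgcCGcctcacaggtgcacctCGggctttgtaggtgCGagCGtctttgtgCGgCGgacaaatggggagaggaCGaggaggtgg
Foxr2: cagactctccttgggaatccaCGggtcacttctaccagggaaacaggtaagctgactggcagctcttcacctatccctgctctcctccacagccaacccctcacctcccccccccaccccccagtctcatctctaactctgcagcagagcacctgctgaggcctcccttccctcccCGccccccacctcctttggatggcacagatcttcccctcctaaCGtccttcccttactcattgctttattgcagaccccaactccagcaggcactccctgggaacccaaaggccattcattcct
The CpG-rich windows included both *Foxd3*, which was lower in EpiLCs, and *Foxi3*, which was higher, and the CpG-poor window of *Foxr2* belonged to another gene that was higher. Among the other windows the count ran up to 59 in *Foxk2*.

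Forkhead motifs were sought in the same windows on both strands, as TGTTTAC, as the related spelling TGTTTAT and as a further spelling, TGTTTGC, which cannot match the same bases of a strand. At least 1 of them was in 5 of the 33 forkhead windows, and 12.5% of all promoters held one. The most upstream window of *Foxp1* (chr6:99520944-99521243, minus strand), the member with the largest difference between the DMSO and ESC libraries among those over 10 TPM, held the spelling TGTTTGC and, on the other strand, the spelling TGTTTAT, both in capitals here.
Foxp1: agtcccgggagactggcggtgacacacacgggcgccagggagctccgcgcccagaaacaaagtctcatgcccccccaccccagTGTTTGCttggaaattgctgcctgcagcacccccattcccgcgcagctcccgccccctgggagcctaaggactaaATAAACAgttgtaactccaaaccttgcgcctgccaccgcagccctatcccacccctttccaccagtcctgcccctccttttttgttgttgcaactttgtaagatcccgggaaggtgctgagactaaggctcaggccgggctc
A match of letters is a description and not a binding site. Of the other *Foxp1* windows, one held TGTTTAT and the other, with 44 CpG, held none of the spellings.

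The libraries held between 34440050 and 47622558 reads on genes. Of the 12 naive markers, 10 were at least 2-fold lower in EpiLCs than in ESCs, and of the 11 primed markers 9 were higher. The fibroblast list, which stands for feeder cells, summed to 66.2 TPM in ESCs, 61.9 TPM in EpiLCs, 159 TPM under DMSO and 152 TPM under EED226. Of its 14 genes measured for EpiLCs over ESCs, 7 (50%) were at least 2-fold lower and 3 (21.4%) higher. The shares of all genes were 12% and 30.5%. *Acta2* alone made 37.0 TPM of the EpiLC sum, against 13.7 TPM of the ESC sum. The near-equal sums of ESCs and EpiLCs thus hide lower levels of many list genes in EpiLCs. Log2 ratios rose with gene length in all 3 comparisons, from a median of -0.16 in the shortest 10% of genes to 0.98 in the longest 10% for EpiLCs over ESCs, and from -0.13 to 0.60 for DMSO over ESCs, so ratios are also given below with that trend removed where it changes the call of a forkhead gene.

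In all 4 cultures a few members made up most of the forkhead RNA. *Foxh1* was the most abundant member in every library, at 150 TPM in ESCs, 287 TPM in EpiLCs, 119 TPM under DMSO and 114 TPM under EED226, which was 31.6%, 34.5%, 20.4% and 18.9% of the summed forkhead level. The sum itself, in the order ESCs, EpiLCs, DMSO and EED226, came to 476, 833, 581 and 603 TPM. The 5 most abundant members of each library were drawn from *Foxh1*, *Foxp4*, *Foxm1*, *Foxo4*, *Foxk2* and, in ESCs alone, *Foxd3*. A total of 18 members had at least 1 TPM in every library, and 14 had a mean of at least 10 TPM. Of the 21 members that averaged 1 TPM or more, 13 (61.9%) were lowest in ESCs and 11 (52.4%) were highest in EpiLCs, and over all genes of that level the shares were 47.8% and 42.2%.

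**Figure D1:**
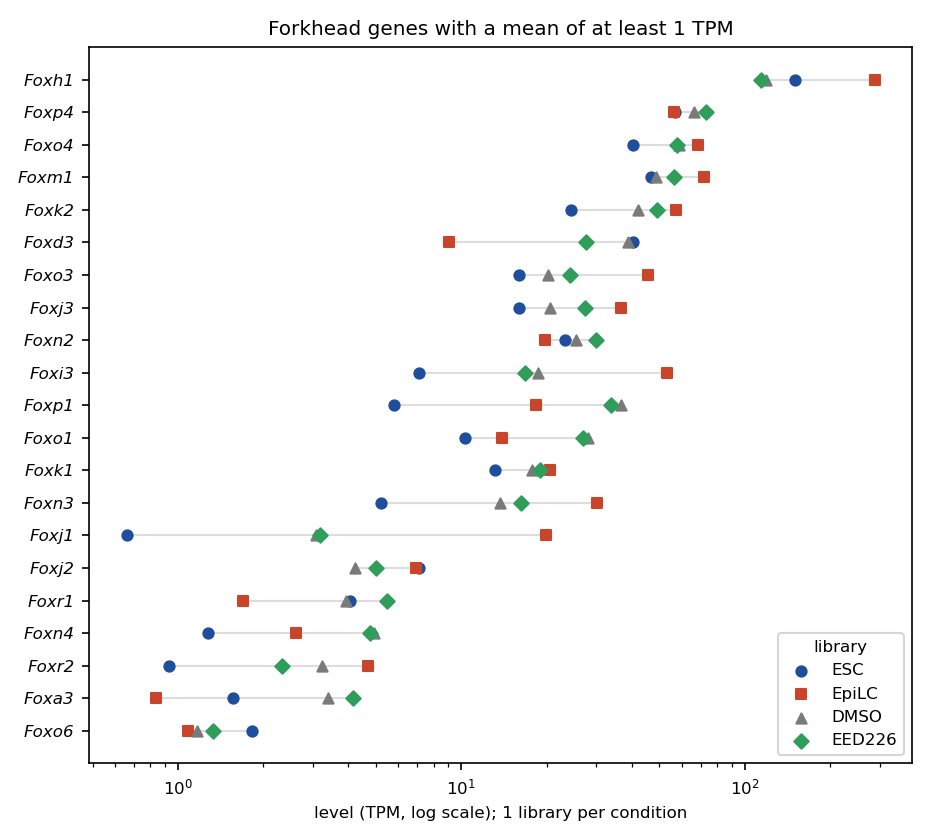
Level in TPM (log axis) of the 21 forkhead genes that averaged 1 TPM or more, ordered by that mean, with 1 point per library and a grey line from the lowest to the highest. *Foxh1* is the highest in every library, and the points of *Foxj1* span the widest range, from 0.659 TPM in ESCs to 20.0 TPM in EpiLCs.

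EpiLCs differed from ESCs in forkhead genes of several roles. *Foxj1*, the regulator of motile cilia, was 30.3-fold higher, *Foxq1*, a gene of hair and stomach lining, 18.0-fold higher, *Foxi3*, a gene of ectodermal placodes, 7.49-fold higher and *Foxn3*, a broadly expressed gene, 5.82-fold higher, while *Foxd3* was at 0.224 of its ESC level. A member was counted as higher or lower when its TPM ratio passed 2-fold and the exact 95% counting interval of the ratio, from the split of the gene's reads between both libraries, excluded 1, among genes with at least 20 reads in the pair. By this rule 11 of the 27 members that had enough reads were higher and 4 were lower, or 40.7% and 14.8%, against 30.5% and 12% of the 14751 genes measured (42.5% in either direction). The median log2 ratio of the 27 (with 0.1 TPM added) was 0.72, and that of all genes was 0.34. The other members called higher were *Foxr2*, *Foxp1*, *Foxo3*, *Foxk2*, *Foxj3*, *Foxn4* and *Foxf1*, and the other members called lower included *Foxr1* and *Foxc2*. The split of 11 higher and 4 lower became 8 and 7 when ratios were centred on the median gene, a shift of 0.29 in log2 for EpiLCs over ESCs, 8 and 6 with the length trend removed, and 8 and 5 with length and transcript GC trends removed. The shares of all genes moved too, to 24.7% higher and 16.8% lower when centred, 23.1% and 15.6% with the length trend removed, and 22.2% and 14.5% with both trends removed. With the length trend removed, *Foxj3*, *Foxk2*, *Foxn4* and *Foxp1* no longer passed, at ratios of 1.62, 1.61, 1.71 and 1.65, while *Foxh1* became higher, at 2.09, and *Foxd1* and *Foxo6* became lower, at 0.416 and 0.499. Intervals cover counting error only, and reads without molecular identifiers are not independent molecules.

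**Figure D2:**
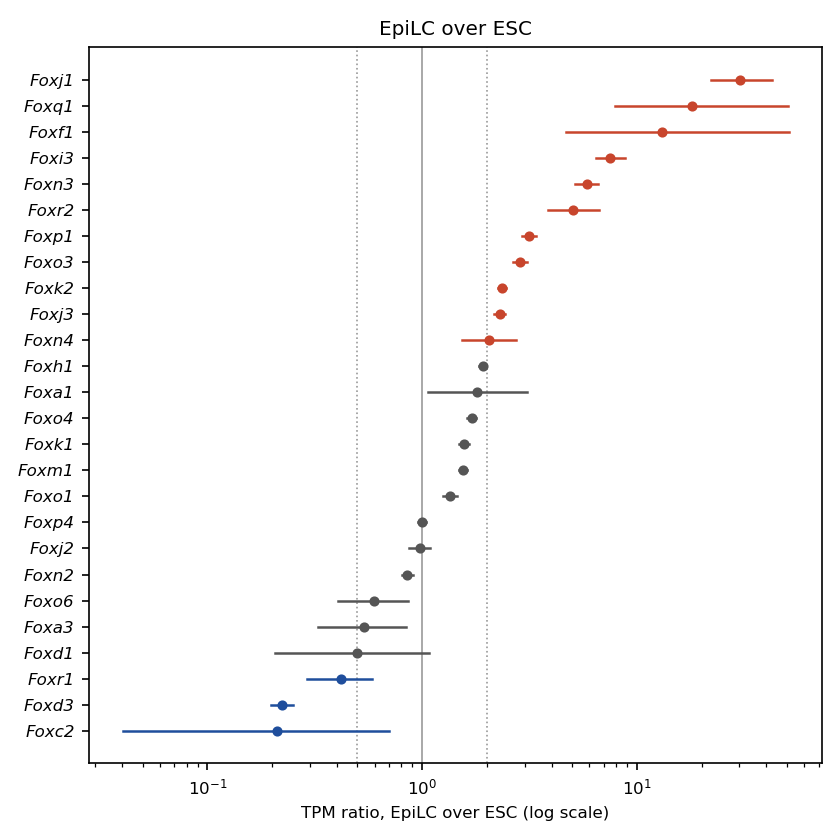
TPM ratio of EpiLCs over ESCs (log axis) for forkhead genes with at least 20 reads in both libraries together, with exact 95% counting intervals, 1 library per condition. Red marks members counted as higher, blue those counted as lower, and the dotted lines the 2-fold limits. Intervals are narrow for *Foxh1* and *Foxd3* and wide for *Foxf1* and *Foxc2*, which had few reads.

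Under EED226 every forkhead gene that averaged 1 TPM or more lay within 1.5-fold of DMSO. The only members called, at a limit of 1.5-fold, were 3 genes below 1 TPM in these libraries, among them *Foxa1*, a pioneer factor of endoderm, which was higher, and *Foxa2*, also of endoderm, which was lower. That is 2 higher and 1 lower of 28 with enough reads, or 7.14% and 3.57%, against 5.76% and 0.756% of the 14421 genes measured (6.51% in either direction), so the share of higher members was near that of all genes. The median log2 ratio of the 28 was 0.20, against 0.089 for all genes.

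DMSO and ESC libraries differed in the medium inhibitors named by the methods, in the solvent and in the time of culture. They may also differ in feeder removal, which the methods describe for the ESC culture and not for the DMSO culture. These differences cannot be told apart. *Foxp1*, a repressor with roles in blood, lung and heart, was 6.30-fold higher under DMSO, *Foxj1* 4.64-fold, *Foxn4*, a retinal gene, 3.87-fold and *Foxo1* 2.71-fold, while *Foxd3* was at 0.954 of its ESC level. With the 2-fold limit, 10 of 27 members were higher and 2 lower, or 37.0% and 7.41%, against 17.9% and 9.71% of the 14496 genes measured (27.7% in either direction). Markers of cell state moved in this pair as well, with 7 of 11 primed markers higher and none lower (*Fgf5* at 58.4), and with 5 of 12 naive markers lower and 2 higher (*Nanog* at 0.303 and *Klf4* at 0.277). The part of that shift in the forkhead ratios was not tested. This comparison shares its ESC library with that of EpiLCs, so a value in that library enters both. The median log2 ratio of the 27 was 0.36, against 0.19 for all genes, and it was -0.014 with the length trend removed. With that trend removed *Foxo1* no longer passed, at a ratio of 1.92, and *Foxj2* was counted as lower, at 0.460. Centring on the median gene shifted this comparison by 0.19 in log2, and *Foxa3* then missed the limit at 1.91.

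**Figure D3:**
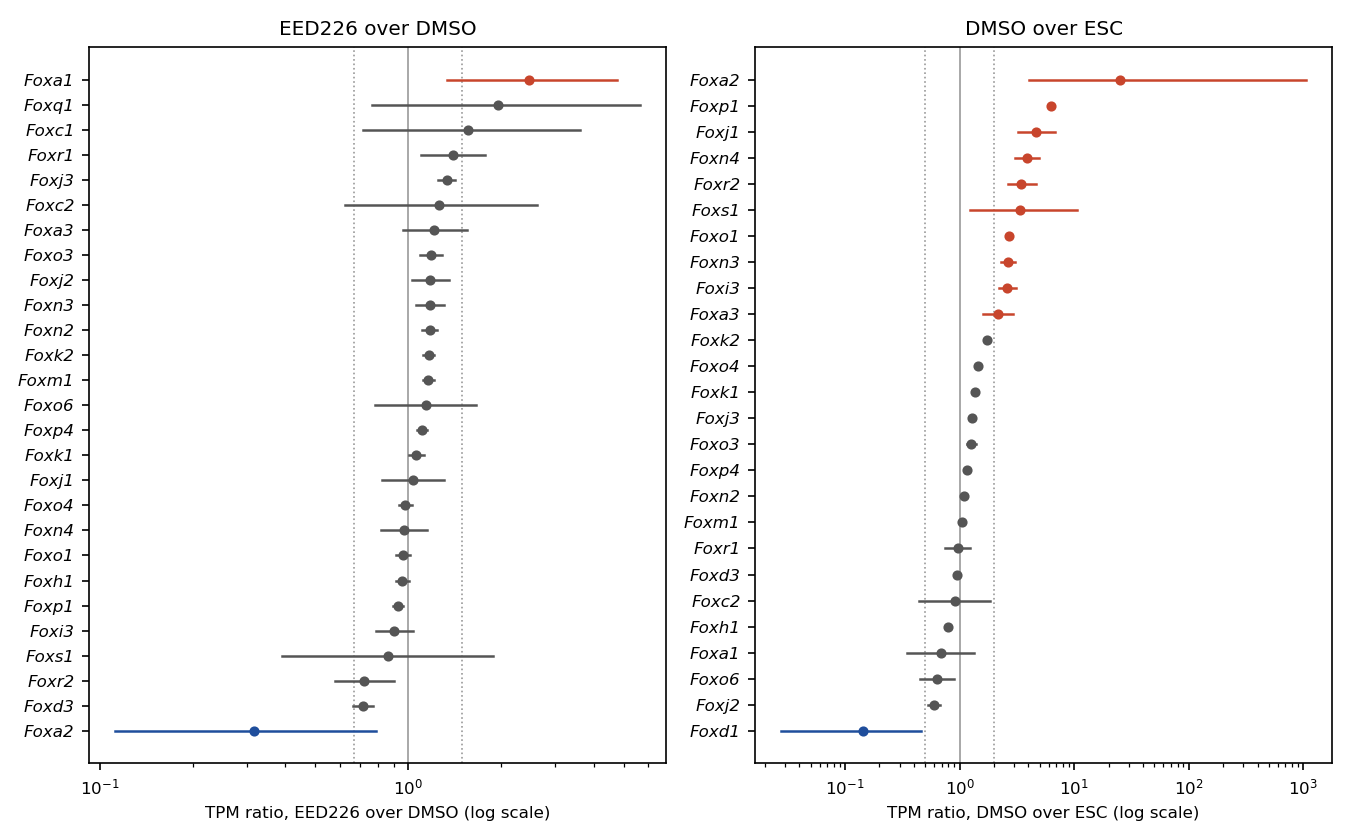
TPM ratios (log axes) of EED226 over DMSO and of DMSO over ESCs for forkhead genes with at least 20 reads in the pair, with exact 95% counting intervals, 1 library per condition. Red and blue mark members counted as higher and lower, and dotted lines the limits of 1.5-fold and 2-fold. *Foxa1* and *Foxa2*, called under EED226, have wide intervals, and 10 members lie above the upper limit in DMSO over ESCs.

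Among factors of the epiblast, *Foxd3* (chr4:99656299-99658622, mm10) was the only one counted as lower in EpiLCs. It was at 40.5 TPM in ESCs, 9.06 TPM in EpiLCs, 38.6 TPM under DMSO and 27.6 TPM under EED226. It thus dropped from the fourth to the fifteenth place among the 44 members, from 2261 reads to 328, and the EpiLC ratio had an interval of 0.199 to 0.251. Under EED226 its ratio was 0.714, with an interval of 0.664 to 0.768, which excludes 1 but does not reach the 1.5-fold limit. Of the 12 genes listed as partners of FOXD3 in pluripotency, 7 (58.3%) were lower and 3 (25%) higher in EpiLCs, against 12% and 30.5% of all genes. Their median log2 ratio was -1.10, and 6 were lower and 2 higher with the length trend removed. Every gene of this list is also in the naive, primed or general pluripotency marker lists. These counts therefore repeat the change of state markers between the cultures and say nothing on FOXD3 itself. Of these genes *Klf4*, a naive state factor, was at 0.038 of its ESC level with *Zfp42* at 0.078. *Fgf5*, the usual marker of primed cells, was 445-fold higher, with an interval from 242 to 929 that reflects 10 reads in ESCs. No gene of this list was called under EED226, where 6.51% of all genes were called in either direction, so none in a list of 12 is near that share. *Tfcp2l1* was at 1.37 and *Dnmt3b* at 0.776 of DMSO.

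*Foxh1* (chr15:76668225-76669948) had a ratio of 1.91 in EpiLCs (interval 1.84 to 1.98), just under the limit, 0.958 under EED226 (0.911 to 1.01) and 0.789 in DMSO over ESCs (0.753 to 0.827). Its levels therefore separated EpiLCs from the 3 cultures with LIF. The Nodal pathway list around FOXH1 had 6 of 16 measured genes higher and 4 lower in EpiLCs, or 37.5% and 25% beside 30.5% and 12% of all genes, with a median log2 ratio of 0.61. *Lefty1*, a Nodal antagonist, was 6.49-fold higher and *Fgf8*, a growth factor of gastrulation, 11.2-fold, while *Lefty2*, a further Nodal antagonist, was at 0.245 and the Nodal co-receptor gene *Tdgf1* at 0.170. Under EED226, 3 of 15 (20%, beside 5.76% of all genes) were higher and none lower, with a median of 0.19 and with *Lefty2* at 2.27 (interval 2.18 to 2.37) and *Lefty1* at 1.63 (1.55 to 1.71). In DMSO over ESCs *Nodal* itself was at 0.485 and *Lefty2* at 0.477, while the mesoderm gene *T* was 53.4-fold higher from a level of 0.104 TPM. The direction of the *Lefty2* ratio thus differed between the pairs of libraries.

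The 4 FoxO genes, which carry the insulin and growth factor response, summed to 68.6 TPM in ESCs, 129 TPM in EpiLCs, 108 TPM under DMSO and 110 TPM under EED226, and they were not highest in the same library. *Foxo3* was at 16.0, 45.6, 20.3 and 24.1 TPM in ESCs, EpiLCs, DMSO and EED226, with an EpiLC ratio of 2.85 (2.65 to 3.07), and remained above 2-fold under centring and with the length trend removed, at 2.33 and 2.46. *Foxo1*, known to sustain pluripotency genes in ESCs, was at 10.3, 13.9, 28.1 and 27.0 TPM in the same order, so its higher levels were in the treated ESCs. *Foxo4* was the most abundant of them, at 40.5, 68.7, 58.7 and 57.5 TPM. The fourth gene, *Foxo6*, which is best known in brain, stayed between 1.09 and 1.83 TPM. The EpiLC ratio of *Foxo1* was 1.35 as deposited and 0.831 with the length trend removed, so its direction there depends on that step.

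Of 25 genes listed as FOXO targets, 23 could be measured in EpiLCs over ESCs, and 11 (47.8%) were higher and 3 lower, beside 30.5% and 12% of all genes, with a median log2 ratio of 0.92. *Irs2*, an insulin receptor substrate, was 11.4-fold higher, *Klf6* 8.60-fold and *Sesn3*, a sestrin of the stress response, 4.89-fold. With the length trend removed the counts were 8 (34.8%) and 3, beside 23.1% and 15.6% of all genes. None of the 23 was called under EED226, beside 6.51% of all genes in either direction, and *Insr* was at 1.46 of DMSO. In DMSO over ESCs 6 (26.1%) were higher and 2 (8.70%) lower, beside 17.9% and 9.71% of all genes. There the death gene *Bcl2l11* was at 5.39 and *Sesn1* at 0.256. Among 16 regulators of FOXO in the PI3K-AKT pathway, 4 (25%) were higher and 2 (12.5%) lower in EpiLCs, shares near the 30.5% and 12% of all genes, with a median of -0.17, or 1 and 2 with the length trend removed. Among the lower genes *Sgk1*, an AKT-related kinase, was at 0.199 of its ESC level. Under EED226 *Sgk3* alone was called, at 1.53 (6.25% of the list, near the 5.76% of all genes), and none with the length trend removed.

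*Foxp1* (chr6:98925338-99522721) was at 5.80 TPM in ESCs, 18.3 TPM in EpiLCs, 36.5 TPM under DMSO and 33.9 TPM under EED226. It was thus the forkhead gene over 10 TPM whose treated cultures stood furthest above ESCs, with 1022 reads in ESCs and 4816 under DMSO, and its rank in the family moved from 14 to 7. The DMSO ratio of 6.30 (5.88 to 6.74) was 4.34 with the length trend removed. A splice form of *Foxp1* is known to act in ESCs, and the deposited counts per gene do not separate forms. The relative *Foxp4*, which acts in lung and gut, lay between 56.4 and 73.3 TPM in the 4 libraries, with an EpiLC ratio of 0.994 (0.952 to 1.04). Of 10 FOXP partners, 3 were higher in EpiLCs, *Nfatc2* at 3.33, *Gatad2b* at 2.55 and *Mta1* at 2.21, and none lower. That share of 30% higher is near the 30.5% of all genes. Their median log2 ratio was 0.39, and removal of the length trend gave counts of 1 and 1. Under EED226 2 (20%, beside 5.76% of all genes) were higher and none lower, among them *Nfatc2* at 1.54. With the length trend removed 1 (10%) was higher, beside 3.69% of all genes.

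**Figure D4:**
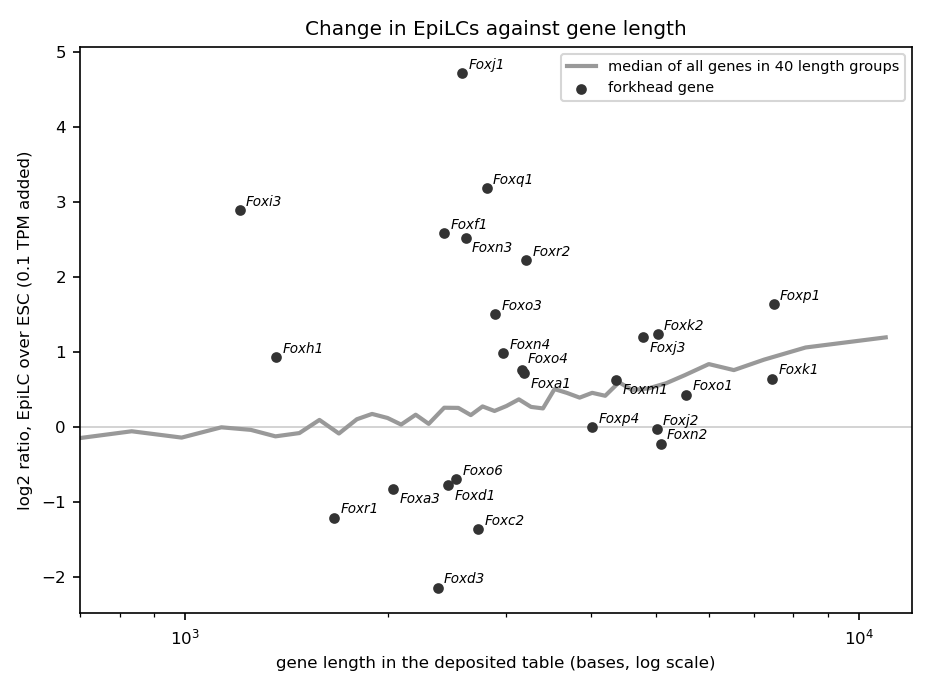
Log2 ratio of EpiLCs over ESCs (0.1 TPM added) against gene length in bases (log axis) for measured forkhead genes, 1 library per condition, with the grey line giving the median of all genes that averaged 1 TPM or more in 40 groups of length. The line climbs with length, so *Foxk1* lies above 0 but under the line, while *Foxj1*, *Foxi3* and *Foxd3* lie far from it.

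The members with roles in ectoderm, brain and sense organs include *Foxj1*, which had the largest EpiLC ratio of the 27 measured. *Foxj1* (chr11:116330704-116335399) was at 0.659 TPM in ESCs, 20.0 TPM in EpiLCs, 3.06 TPM under DMSO and 3.18 TPM under EED226, with reads of 40, 785, 139 and 168. Every other library lay above ESCs, and EpiLCs lay far above the treated ESCs. The EpiLC ratio of 30.3 had an interval of 22.0 to 42.7, the DMSO ratio was 4.64 (3.25 to 6.78), and the EED226 ratio was 1.04 (0.824 to 1.31). Of 15 motile cilium genes, 12 were measured in EpiLCs over ESCs, and 6 (50%) were higher and 3 (25%) lower, beside 30.5% and 12% of all genes, with a median log2 ratio of 1.35. They did not move one way: *Dnaic1*, a dynein chain, was 6.65-fold higher and the cilium regulator *Rfx3* 5.68-fold higher, whereas *Rfx2*, its relative, was at 0.192. Of the multiciliated cell markers, which share genes with that list, *Gmnc* had 2 reads in ESCs and none in EpiLCs, and *Mcidas* 4 and 25, and the list summed to 15.2 TPM in ESCs against 18.0 TPM in EpiLCs. The part of such cells in the *Foxj1* result was not tested. In bulk samples like these, fewer cells of a type and less RNA per cell cannot be told apart.

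*Foxi3* (chr6:70956531-70961066) was at 7.12 TPM in ESCs, 53.3 TPM in EpiLCs, 18.6 TPM under DMSO and 16.8 TPM under EED226, so it went from the twelfth to the sixth place in the family in EpiLCs. Its EpiLC ratio of 7.49 had an interval of 6.43 to 8.75, and its EED226 ratio was 0.903 (0.785 to 1.04). *Foxr1* and *Foxr2*, relatives with few known roles, moved in opposite directions. *Foxr1* was at 4.06, 1.69, 3.92 and 5.48 TPM in ESCs, EpiLCs, DMSO and EED226, and *Foxr2* at 0.927, 4.68, 3.22 and 2.33 TPM. EpiLCs thus held the lowest level of the first and the highest of the second, with ratios of 0.417 (0.290 to 0.587) and 5.04 (3.84 to 6.69). Under EED226 the ratios were 1.40 (1.10 to 1.78) and 0.722 (0.579 to 0.900), each on the other side of 1 from its EpiLC ratio, and neither passed the limit. *Foxn4*, a gene of retinal interneurons, was at 1.27, 2.603, 4.93 and 4.78 TPM, highest in the treated ESCs.

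Endoderm members stayed low throughout. *Foxa1* had 29, 34, 15 and 43 reads in ESCs, EpiLCs, DMSO and EED226, and *Foxa2* 1, 14, 19 and 7. Under EED226 their ratios were 2.46 (1.34 to 4.77) and 0.317 (0.112 to 0.786), so these partly redundant genes lay on opposite sides of DMSO, on few reads each. The DMSO over ESC ratio of *Foxa2* was 25.4, with an interval of 4.04 to 1055 because ESCs gave 1 read. *Foxa3*, the liver member, was at 1.56, 0.835, 3.40 and 4.14 TPM. *Foxq1* (chr13:31556134-31560976) was at 0.0909, 1.64, 0.142 and 0.278 TPM, and its EpiLC ratio of 18.0 (7.86 to 50.7) rested on 6 and 70 reads. Of its exonic bases 66.1% lie also in *A530084C06Rik* on the opposite strand, and without a stated strand setting the reads of both cannot be told apart.

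Of 18 endoderm partners and targets of FOXA, 14 were measured in EpiLCs over ESCs, and 4 (28.6%) were higher, near the 30.5% of all genes, and 4 lower, beside 12% of all genes (median log2 ratio 0.32), with *Cldn6*, a tight junction gene, at 15.9 and the laminin gene *Lama1* at 0.169. Under EED226 3 of 12 (25%, beside 5.76% of all genes) were higher and none lower, with a median of 0.32, and *Gata4*, a regulator of primitive endoderm, was at 3.19 (2.51 to 4.11), from 1.42 to 4.54 TPM. In DMSO over ESCs 1 was higher and 4 lower (7.14% and 28.6%, beside 17.9% and 9.71% of all genes), and *Col4a1* was at 0.275. With the length trend removed the counts were 1 and 8 (7.14% and 57.1%, beside 13.8% and 11.9% of all genes). The endoderm marker list, which shares genes with this one, summed to 109 TPM in ESCs, 237 TPM in EpiLCs, 125 TPM under DMSO and 147 TPM under EED226. Of these sums *Lamb1* alone made 9.97, 171, 84.3 and 92.3 TPM. In EpiLCs over ESCs 7 of 13 measured markers (53.8%) were higher and 2 (15.4%) lower, beside 30.5% and 12% of all genes. Under EED226 3 of 11 (27.3%, beside 5.76% of all genes) were higher and none lower. *Ttr* had 3 reads in EpiLCs and none elsewhere, and *Afp* had none in any library. The part of endoderm cells in the *Foxa* and *Foxq1* results was not tested.

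Among mesoderm and mesenchyme members, neighbours on chromosome 8 went opposite ways in EpiLCs. *Foxf1* (chr8:121084386-121088144) had 4 reads in ESCs, 34 in EpiLCs, 8 under DMSO and 10 under EED226, and *Foxc2*, a lymphatic and somite gene 28.0 kb further on, had 22, 3, 15 and 22. The EpiLC ratios were 13.1 (4.67 to 50.8) and 0.210 (0.0403 to 0.700). *Fendrr*, the noncoding gene transcribed away from *Foxf1* from a start 1276 bases off, had at most 3 reads in a library. *Foxd1*, of kidney stroma, had 28, 9, 3 and 5 reads, and its DMSO over ESC ratio was 0.143 (0.0279 to 0.463). *Foxs1*, a gene of perivascular cells, had 6, 1, 15 and 15, and its DMSO ratio was 3.34 (1.22 to 10.5). Of 14 fibroblast markers measured in that pair, 9 were at least 2-fold higher under DMSO and none lower, beside 17.9% and 9.71% of all genes. With the length trend removed the counts were 6 and none. The part of feeder cells in the *Foxs1*, *Foxp1* or *Foxo1* ratios was not tested.

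Of the 8 members listed as broadly expressed, 3 were counted as higher in EpiLCs, *Foxk2*, *Foxj3* and *Foxn3*, and none as lower. Of these, *Foxn3* alone still passed with the length trend removed. *Foxm1*, which drives mitotic genes, was at 46.6 TPM in ESCs, 72.1 TPM in EpiLCs, 48.5 TPM under DMSO and 56.4 TPM under EED226. Its EpiLC ratio of 1.55 (1.49 to 1.61) became 1.05 with the length trend removed. Of its 18 mitotic targets, *Cenpe* and *Cenpf*, both encoding large kinetochore proteins, were higher in EpiLCs, at 3.00 and 3.02, and none was lower (11.1% higher, beside 30.5% of all genes), while with the length trend removed none was higher and 1 was lower. The median log2 ratio of the list was -0.060. The start of *Foxm1* lies 56 bases from that of *Rhno1* on the other strand, and *Rhno1* was at 45.9, 49.2, 52.9 and 55.2 TPM.

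*Foxk2*, one of a pair of repressors that recruit SIN3 and the BAP1 deubiquitinase, was at 24.3, 57.2, 42.1 and 49.2 TPM in ESCs, EpiLCs, DMSO and EED226, and its partner gene *Foxk1* at 13.1, 20.5, 17.8 and 18.9 TPM. Both were lowest in ESCs and highest in EpiLCs. The EpiLC ratio of *Foxk2* was 2.35 (2.24 to 2.47), and that of *Foxk1*, 1.57, was 0.824 with the length trend removed. Of 12 FOXK partners, 3 (25%) were higher in EpiLCs, against 30.5% of all genes, and none lower (median log2 ratio 0.33), or 1 and 1 with the length trend removed, and *Rest*, a repressor of neuronal genes, was at 2.01 there and at 4.44 in DMSO over ESCs.

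*Foxn3*, a checkpoint gene, was at 5.19 TPM in ESCs, 30.2 TPM in EpiLCs, 13.7 TPM under DMSO and 16.2 TPM under EED226, and its EpiLC ratio had an interval of 5.14 to 6.61. Its relative *Foxn2* was at 23.1, 19.8, 25.4 and 29.9 TPM. The table gives *Foxn3* a length of 2611 bases where the annotation holds 11501 exonic bases. *Foxo3* (2889 and 7571), *Foxj3* (4789 and 10973) and *Foxp1* (7484 and 13751) are among others with a shorter table length. TPM, and so the places in the family, depend on that length, while ratios do not unless the length trend is removed. The levels of *Foxn3* and *Foxn2* are therefore not compared with each other. *Foxj3* was at 16.0, 36.7, 20.5 and 27.4 TPM, with an EED226 ratio of 1.33 (1.26 to 1.42), and *Foxj2* was at 7.09, 6.90, 4.22 and 4.99 TPM. *Foxj3* was thus highest in EpiLCs and *Foxj2* in ESCs.

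The PRC2 subunits themselves, the target of EED226, were measured for all 12 listed. *Eed* was at 327 TPM in ESCs, 103 TPM in EpiLCs, 258 TPM under DMSO and 220 TPM under EED226, and the EpiLC ratio was 0.315. *Ezh1* was 2.58-fold higher in EpiLCs and *Epop*, listed as *E130012A19Rik*, was at 0.138. These counts of 1 higher (8.33%) and 2 lower (16.7%) stand beside 30.5% and 12% of all genes (median log2 ratio 0.056). With the length trend removed they became 0 and 5 (41.7%), beside 23.1% and 15.6% of all genes. Under EED226 *Phf19* alone was called higher, at 1.59 (1.45 to 1.74), or 8.33% of the list, beside 5.76% of all genes. None was called with the length trend removed.

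The remaining 15 members had at most 20 reads in any library and at most 0.528 TPM. They included *Foxp3* of regulatory T cells and *Foxn1* of the thymus, the clustered genes *Foxf2* and *Foxc1* beside *Foxq1* on chromosome 13, and *Foxl1* beside *Foxc2*. Of all 44, only *Foxi1* had no reads in any of the 4 libraries, which at 3 reads allows up to 0.0542 TPM in ESCs and 0.0835 TPM in EpiLCs. No 100-base stretch of annotated exons was shared between any pair of the 44 genes.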

How the data were processed

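Total RNA from 4 cultures was made into stranded mRNA libraries and read as 100 bp single reads. The submitters' notes on processing list featureCounts 1.6.2, STAR 2.6.0a, Bowtie2 2.2.4 and bcl2fastq 2.20, with mm10 as build. Whether strand was used in counting was not given in the sources used here. The authors deposited, per gene and library, the read count, TPM, and a signal, the reads per base. Of 24421 entries, 2 that share a symbol were left out.

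Ratios of deposited TPM were given with exact (Clopper-Pearson) 95% intervals from the split of the counts, and log2 values with 0.1 TPM added. No p-value was computed, since a condition had 1 library. The forkhead members, gene lists and rules were chosen with earlier results of these data known. Members were named when their mean was at least 1 TPM or when called in a comparison, and of each list the 3 genes with the largest log2 ratio and a mean of at least 1 TPM, while markers, members and list genes outside the rule were named after their values were seen. The length trend was a running median in 40 groups. GC came from the longest GENCODE M21 transcript and was known for 96.5% of genes. The interval and the trend removal were tested on simulated data. Of the members, 1 is not reported here by name or value, nor are some list genes. Versions were matplotlib 3.10.9, scipy 1.17.1, pandas 2.3.3, numpy 2.4.6 and Python 3.11.15.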

Additional observations from a re-analysis of the deposited data

How the results depend on the processing

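No paired analysis was possible because each condition had 1 library. For EpiLCs over ESCs the median log2 ratio of the forkhead members moved from 0.72 to 0.53 without a filter on reads, 0.42 when centred on the median gene, 0.39 with the length trend removed and 0.51 with length and GC trends removed. For EED226 over DMSO the 3 members called became 0 when a mean of at least 1 TPM was required, since all 3 lie below it, and 5 without the interval, which adds *Foxc1* and *Foxq1*. For DMSO over ESCs the median moved from 0.36 to 0.066 with length and GC trends removed and turned to -0.014 with the length trend removed. The other 31 alternatives of these counts and medians kept their direction, with counts within 1.5 times. Of the named members' log2 ratios, 195 stayed within their counting interval under an alternative and 129 moved out of it, but none that was called changed sign. Depth limits the members below 1 TPM, where a few reads decide a ratio.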
